A study of Drosophila melanogaster with 10 samples.

Results

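Elys knockdown in S2 cells was examined here by gene function, in the poly(A+) RNA of 4 of the 10 samples of the series. The tables held 13937 genes. Levels are given as TPM, the share of transcripts corrected for gene length and set to the same total in each library. Genes with a mean of at least 1 TPM in either group numbered 7677, and 7655 of them had enough counts for a test. They are described through 60 lists of genes of known function, which together held 1692 of the 7655 genes. S2 is a cell line from late embryos of Drosophila melanogaster with features of blood cells. Elys-KD cells received double-stranded RNA (dsRNA) against Elys, whereas control cells (called Control-KD in the labels) received dsRNA against LacZ, a bacterial gene that flies lack. Both treatments lasted 3 days and were repeated for 2 more days, in the same line. The other samples of the series map chromatin by DamID and were not used here. Each group had 2 libraries, described as biological replicates. Elys RNA stood at 4.96 and 4.55 TPM in Elys-KD cells, against 28.3 and 30.2 TPM in control cells (16.3% of control). The dsRNA was made on a template cut out by these primers (the part specific to Elys, a gene of the X chromosome), which are shown because they fix which transcript was targeted.
Elys forward: cgccagagcagcagttcgccac
Elys reverse: gccgaggacacgttcgagtcttcgc

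Elys is a nucleoporin that binds chromatin and recruits nuclear pore subunits at the end of mitosis. Nuclear pores carry RNA and proteins across the envelope, and genes at the nuclear periphery are for the most part silent. In S2 cells, blood cell, immune and growth programmes are active, and most genes of neurons, muscle, cuticle and the germ line are not.

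Blood cell markers were measured in both groups. The GATA factor gene srp, which sets blood cell fate, had 77.6 and 73.9 TPM in Elys-KD cells, against 66.4 and 69.4 TPM in control cells. It did not pass the test, nor did the blood cell markers crq, drpr, Hml, PPO2, Col4a1 and vkg. Pxn, described below, and ush, a cofactor of GATA proteins (overlapping cbt and 2 long non-coding RNA genes), were called higher, ush with 75.1 and 70.4 TPM in Elys-KD cells, against 60.7 and 62.6 TPM in control cells. Markers of glia (repo), of synapses (nSyb, Syt1), of muscle (Mhc, up), of fat body (Lsp1alpha, Lsp2, Fbp1), of lamellocytes (atilla) and of crystal cells (lz) lay under 1 TPM in all 4 libraries. Other markers of these cell types did not. The muscle gene Mlc2 had 11 and 12.1 TPM in Elys-KD cells, against 8.19 and 7.63 TPM in control cells, and was called higher. The crystal cell gene PPO2 lay at 10.1 to 11.1 TPM. The neuronal RNA-binding gene elav was measurable, at 3.32 and 2.79 TPM in Elys-KD cells and 2.85 and 3.62 TPM in control cells, and so was the germ-line gene bam, described below. In bulk RNA, fewer cells of a type and less RNA per cell cannot be told apart.

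Estimated counts per library were 58200996 and 57622326 in Elys-KD cells, against 68034643 and 61350395 in control cells. A gene is called higher or lower where edgeR's quasi-likelihood test gave a Benjamini-Hochberg adjusted p under 0.05, adjusted over 9156 genes. Fold changes are Elys-KD over control, on the log2 scale with the standard error (SE) of the fit, and folds in words are ratios of mean TPM. With 2 libraries in each group an exact permutation test of 1 gene cannot go below p = 0.333, so every p comes from the model over all genes and measures the spread between these libraries. The first Elys-KD library stood apart for immune peptides. It lay over 1.5 times above all 3 other libraries in 17 of 7655 genes, of which 8 encode antimicrobial or immune-induced peptides, whereas the other libraries did so in 2 to 8 genes. Nothing used here says whether the libraries kept strand, so a called gene that overlaps another on the Release 6 annotation is named with its partner and is uncertain to that extent.

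Of the 7655 genes, 8.74% were called higher and 10.1% lower, and with a further rule of over 1.5-fold, 2.14% were called higher and 0.666% lower. These shares are the background for each list. Among all calls 46.4% were higher. When counts were scaled by library totals alone 61.5% of calls were higher (11.7% of genes higher and 7.33% lower), and the median log2 fold change of all genes was 0.02 in place of -0.01. Of the 164 genes higher over 1.5-fold, 84 had no given name and 36 stood in a list. Of the 51 genes lower over 1.5-fold, 20 had no given name and 23 stood in a list. Most of the larger rises thus lay outside the lists, but so did most of all genes, with 1692 of the 7655 in a list. What follows covers the part of the response that has a known function.

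**Figure D1:**
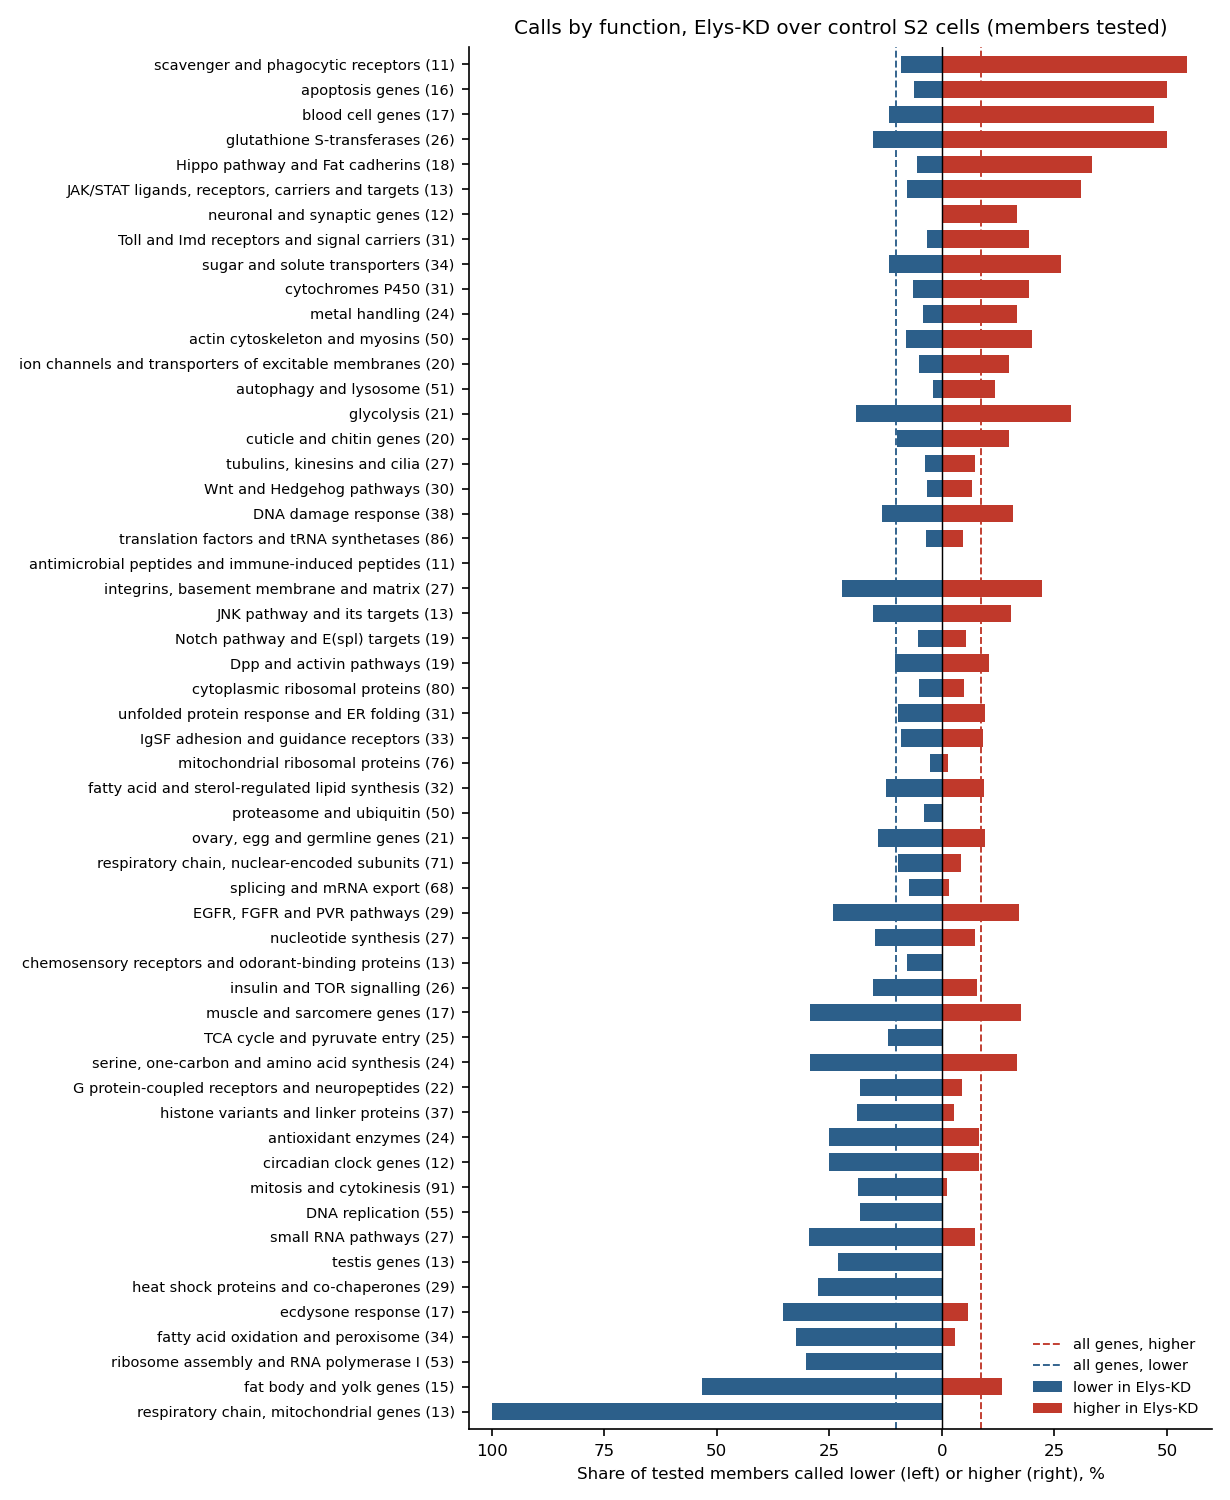
Share of the tested members of each list called higher (right, red) or lower (left, blue) in Elys-KD over control S2 cells, in percent, for the 55 lists with at least 11 tested members (number in brackets). Dashed lines mark the shares over all 7655 genes, 8.74% higher and 10.1% lower. Scavenger receptors reach 54.5% higher, glutathione S-transferases and apoptosis genes 50%, and the genes of the mitochondrial genome 100% lower.

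Many glutathione S-transferase genes rose in Elys-KD cells. These enzymes, which join glutathione to reactive compounds, were called higher in 13 of 26 tested members (50%, against 8.74% of all genes) and lower in 4 (15.4%, against 10.1%). Their median log2 fold change was 0.20, and 6 members (GstD2, GstD5, GstD7, GstE2, GstE3 and GstE8) were higher over 1.5-fold. Leaving out each library in turn gave 11 to 14 members higher, and the 4 lower ones became 1 under library totals, 0 in DESeq2, 1 without the first Elys-KD or the first control library and 2 without the second control library. GstD5 had 9.35 and 11.1 TPM in Elys-KD cells, against 2.84 and 3.05 TPM in control cells (log2 fold change 1.80 ± 0.16, edgeR adjusted p = 0.000748). GstD7 had 4.90 TPM in both Elys-KD libraries, against 1.83 and 1.26 TPM in control cells. The groups did not overlap for either gene, which the rule for naming them required. The more abundant GstE2 had 62.2 and 66.3 TPM, against 36.1 and 36.4 TPM, and GstE3, picked after its values were seen as was GstE8, had 127 and 135 TPM, against 75.9 and 79.1 TPM, with log2 fold changes of 0.82 and 0.76. Summed over 35 genes, glutathione S-transferase RNA came to 2134 and 2221 TPM in Elys-KD cells, against 1737 and 1768 TPM in control cells. Members of the GstD and GstE clusters are close copies of each other, and reads shared between them could have been split unevenly.

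Cytochromes P450, which oxidize toxins and steroids, had 6 of 31 tested members called higher and 2 lower, with 4 to 8 higher and 1 to 4 lower when single libraries were left out. Cyp6a8 had 8.48 and 9.24 TPM in Elys-KD cells, against 5.21 and 4.93 TPM in control cells, and Cyp12d1-p had 11 and 8.97 TPM, against 6.23 and 6.42 TPM. Cyp12a4 went the other way, with 7.55 and 7.72 TPM, against 11 and 12.2 TPM. Of 7 glycosyltransferases that passed the level limit, Ugt50B3 rose 2.19-fold (it overlaps TpnC4). Among metal-handling genes 4 of 24 rose and 1 fell, with 3 to 7 higher when single libraries were left out. The copper-buffering metallothionein gene MtnA had 327 and 352 TPM, against 209 and 224 TPM (log2 fold change 0.68 ± 0.053, edgeR adjusted p = 0.000566). Of 24 antioxidant enzymes 2 rose and 6 fell, 3 of them over 1.5-fold, and 3 were lower without the second control library. The peroxiredoxin genes Prx6b (45.6 and 42.2 TPM, against 87.5 and 98.6 TPM) and Prx6c (86.4 and 75.7 TPM, against 155 and 167 TPM) both fell, and the thioredoxin gene dhd fell to 5.43 and 5.19 TPM, against 8.33 and 8.10 TPM in control cells. The regulators of this programme, cnc (a transcription factor, overlapping CG46310, Irk1 and fzo) and its inhibitor Keap1, had 12.4 and 11.7 TPM against 10.2 and 11.1 TPM, and 12 and 9.34 TPM against 8.59 and 8.62 TPM, and neither passed the test (edgeR adjusted p = 0.0871 and 0.0887).

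JAK/STAT signalling carries cytokine signals of the Upd family through the receptor Dome and the kinase Hop to the transcription factor Stat92E. Of its 13 tested genes 4 were called higher and 1 lower, and without the second control library 2 were called higher. The ligand gene upd2 had 3.27 and 3.11 TPM in Elys-KD cells, against 1.24 and 1.38 TPM in control cells (log2 fold change 1.25 ± 0.13, edgeR adjusted p = 0.00143). The ligand gene upd3 had 4.53 and 3.91 TPM, against 2.68 and 2.26 TPM (log2 fold change 0.73 ± 0.13, edgeR adjusted p = 0.0116, and at most 0.0575 with a library left out), while upd1 lay under 0.1 TPM in every library. Both changed ligands were low in level and clear of the controls, which the rule for naming them required. The feedback inhibitor gene Socs36E (overlapping lncRNA:CR44478) had 99.3 and 91 TPM, against 75.8 and 73.9 TPM. The receptor gene dome, at 62.7 and 57.6 TPM against 52.2 and 53.8 TPM, did not pass (edgeR adjusted p = 0.0603), nor did hop (20.8 to 21.9 TPM against 20 to 21.3 TPM) or Stat92E (155 and 144 TPM against 137 and 143 TPM).

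The receptor tyrosine kinase pathways moved in both directions, with 5 of 29 tested genes called higher and 7 lower. With any single library left out 2 or 3 were higher, and without either control library 4 were lower. Pvf2, a growth factor of the PDGF and VEGF family (overlapping Ugt307A1 and lncRNA:CR44611), had 35 and 34.4 TPM in Elys-KD cells, against 21.2 and 20.5 TPM in control cells (log2 fold change 0.70 ± 0.037, edgeR adjusted p = 0.000103). Its receptor gene Pvr had 321 and 297 TPM, against 360 and 382 TPM, and was called lower (log2 fold change -0.31 ± 0.035). The FGF gene pyr rose to 2.49 and 1.98 TPM, against 1.16 and 1.38 TPM in control cells, and rho, whose protease releases EGF ligands (overlapping Ptp61F), rose to 5.90 and 5.38 TPM, against 3.52 and 3.39 TPM. The secreted EGF inhibitor gene aos (overlapping CG33158) fell to 4.85 and 3.91 TPM, against 7.40 and 7.72 TPM in control cells. The most abundant EGF ligand gene, spi (overlapping 3 microRNA genes), was also called lower, with 347 and 334 TPM against 365 and 368 TPM, and the second PDGF and VEGF family gene Pvf3 was not called (1.41 and 1.34 TPM against 1.13 and 0.838 TPM). Egfr itself lay under 1 TPM in all 4 libraries, and the effector gene pnt had 251 and 233 TPM against 252 and 262 TPM and was not called.

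The other growth pathways changed by small amounts. Hippo signalling, which restrains growth by holding back the coactivator Yki, had 6 of 18 tested genes higher and 1 lower, none over 1.5-fold. The kinase gene wts (overlapping mir-1013) had 28 and 25.8 TPM in Elys-KD cells, against 22.2 and 23 TPM in control cells, and yki had 102 and 98.8 TPM, against 90.6 and 89.9 TPM. This count was not stable. It fell when either control library or the second Elys-KD library was left out, and it was 3 in DESeq2. Wnt and Hedgehog genes (2 of 30 higher, 1 lower) and Notch genes (1 of 19 in each direction) were under the background in both directions. Of 19 genes of the Dpp and activin pathways, 2 rose and 2 fell. Among them cv-2, which binds Dpp family ligands outside the cell, had 56.7 and 51.6 TPM, against 34.6 and 37.9 TPM, and was higher. The ligand gene myo, with 19.7 and 19.2 TPM against 20.6 and 20.5 TPM, was lower, as was the repressor gene brk (overlapping CG1677 and lncRNA:CR44357), with 8.04 and 6.94 TPM against 9.88 and 10.8 TPM. The ligand gene dpp was not called (1.36 and 1.25 TPM against 0.952 and 1.05 TPM). Of 13 genes of JNK signalling 2 rose and 2 fell. The matrix protease gene Mmp1 (overlapping Pof) was 1.4-fold higher. The gene of the TNF ligand Eiger, egr (overlapping small RNA genes), was also higher, at 199 and 197 TPM against 165 and 169 TPM. The receptor gene wgn, which binds Eiger, was lower, at 29.5 and 29.0 TPM against 35.9 and 37.0 TPM. The feedback phosphatase gene puc had 67 and 65.1 TPM against 61.5 TPM in both control libraries and was not called.

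**Figure D2:**
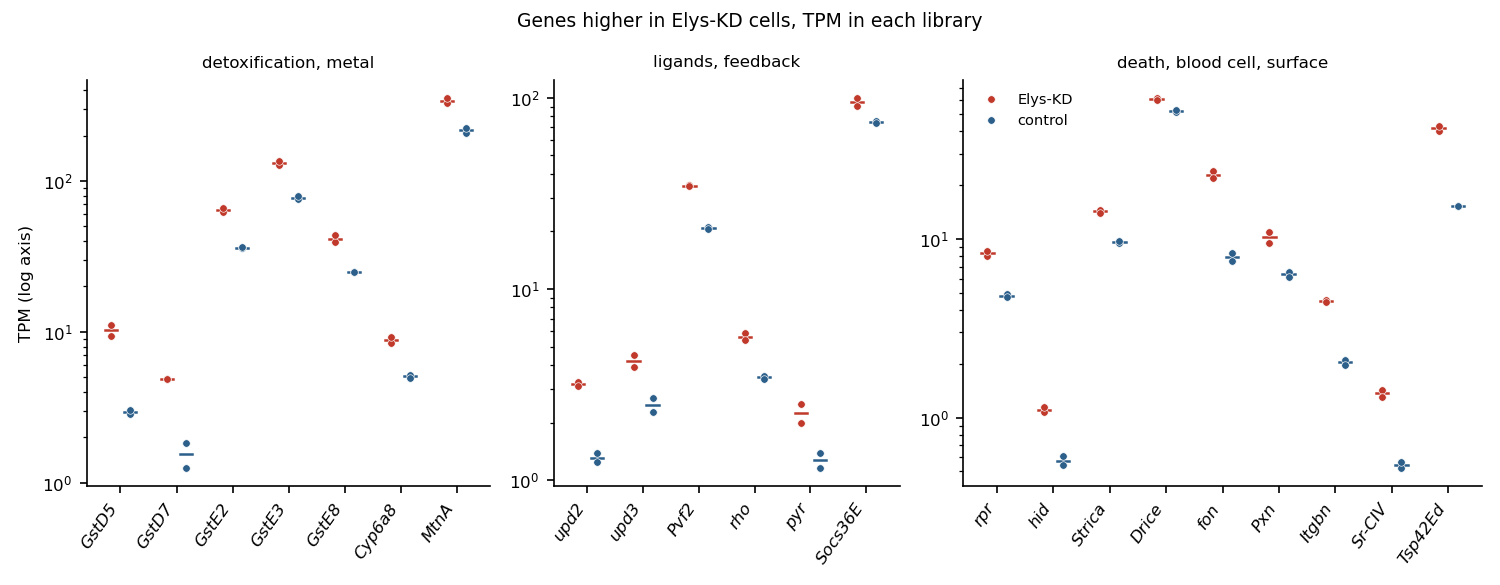
TPM on log axes of genes called higher in Elys-KD cells, in each of the 2 Elys-KD libraries (red) and the 2 control libraries (blue), with a bar at the mean. The panels hold detoxification and metal genes, ligands with a feedback inhibitor, and death, blood cell and surface genes. In each gene both Elys-KD libraries lie above both controls, which the rule for naming required of most of them. The means differ by 3.47-fold in GstD5, 2.44-fold in upd2 and 2.73-fold in Tsp42Ed.

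Of 16 tested apoptosis genes 8 were called higher and 1 lower (median log2 fold change 0.12). This count was 3 without the first control library and 2 without the second, and 6 in DESeq2. The genes rpr and hid encode proteins that block the caspase inhibitor Diap1. In Elys-KD cells rpr had 8.01 and 8.59 TPM, against 4.89 and 4.75 TPM in control cells (log2 fold change 0.77 ± 0.12, edgeR adjusted p = 0.0069). In Elys-KD cells hid had 1.07 and 1.14 TPM, against 0.608 and 0.540 TPM in control cells (edgeR adjusted p = 0.0116, and at most 0.0554 with a library left out). Both rose while staying low in level. The caspase genes Strica (14.5 and 14.0 TPM against 9.54 and 9.75 TPM, overlapping Pngl), Dronc (12.7 and 11.6 TPM against 10 and 10.2 TPM) and Drice (61.1 and 59.6 TPM against 51.2 and 52.7 TPM) were also called higher. Diap1 had 199 and 196 TPM, against 192 and 195 TPM, and p53 had 24.7 and 23.3 TPM, against 24.3 and 25.6 TPM, and neither was called. Of 51 autophagy and lysosome genes 6 rose and 1 fell, among them Atg18b at 27.8 and 27.2 TPM against 17.7 and 19.3 TPM (it overlaps CG8679 and a small nuclear RNA gene). Genes of the DNA damage response were called in both directions, 6 higher and 5 lower of 38, with 3 to 5 higher and 2 to 7 lower when single libraries were left out.

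Toll and Imd receptors and signal carriers had 6 of 31 tested members higher and 1 lower, and without the first Elys-KD library, which stood apart for immune peptides, 4 were higher. Without the first control library 2 were higher, and without the second 3. The peptidoglycan receptor gene PGRP-LA had 7.71 and 8.39 TPM in Elys-KD cells, against 5.57 and 5.55 TPM in control cells, and PGRP-SD (overlapping CG32373 and CG7492) had 10.8 and 7.81 TPM, against 6.21 and 5.70 TPM. The receptor gene Tl (5.85 and 5.29 TPM against 4.14 and 4.70 TPM) and the NF-kB gene dl (81.2 and 78.2 TPM against 67.1 and 69.1 TPM) were called higher, whereas PGRP-LC, imd and Dif were not called. Rel, the NF-kB factor of the Imd pathway (overlapping Nmdmc), had 147 and 83.7 TPM, against 75.5 and 71.8 TPM (edgeR adjusted p = 0.103).

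None of the 11 tested antimicrobial and immune-induced peptide genes was called in edgeR's test, which had no replicate block, although their median log2 fold change was 0.86. At an unadjusted p under 0.05, 7 of the 11 were higher, and DESeq2 called 1 higher. Of all 7655 genes 2711 changed at that limit in either direction, and rises alone were not counted. In 4 of the 11 both Elys-KD libraries lay above both controls, a share not counted over all genes. The peptide genes that follow are given for the spread between libraries and were picked after their values were seen. The cecropin gene CecA1 had 140 and 47.6 TPM in Elys-KD cells, against 50.2 and 44.2 TPM in control cells, and the attacin gene AttB had 20.4 and 4.86 TPM, against 5.02 and 3.35 TPM. In both genes the first Elys-KD library alone was high, and the second lay within the range of the controls. Summed over 33 genes, their RNA came to 309 and 134 TPM in Elys-KD cells, against 132 and 117 TPM in control cells. Without the second Elys-KD library 9 members were called higher, and without the first none. Outside the list, the immune-induced peptide gene BaraA1 (overlapping CG30059), also picked after its values were seen, was called higher, with 2.66 and 2.28 TPM against 1.43 and 1.68 TPM (edgeR adjusted p = 0.036, and at most 0.164 with a library left out). DESeq2 did not call it (adjusted p = 0.118).

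**Figure D3:**
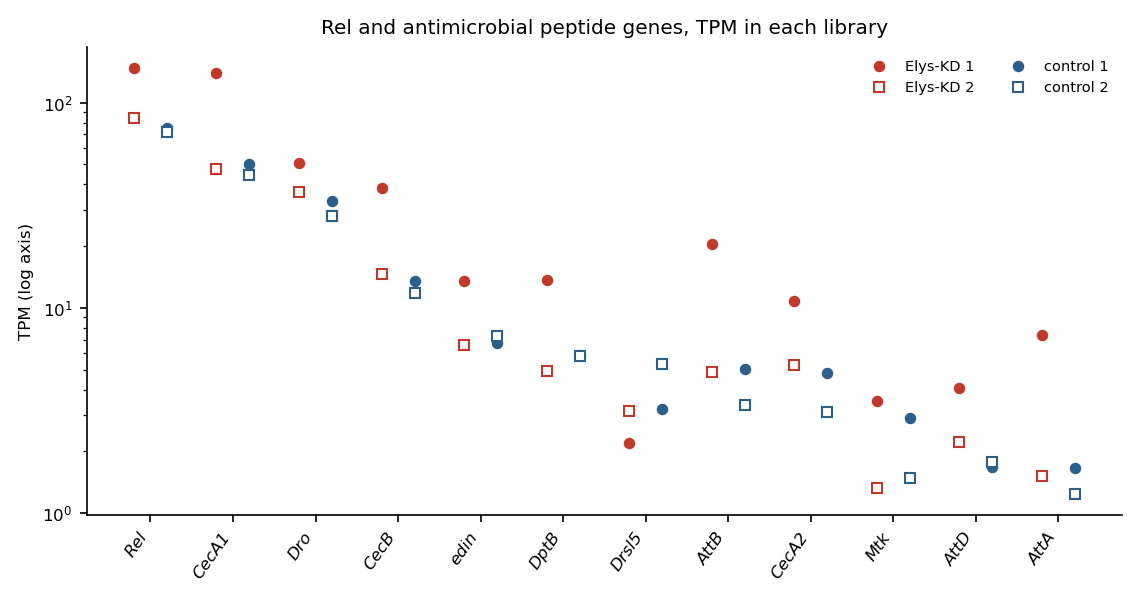
TPM on a log axis of Rel and the 11 tested antimicrobial and immune-induced peptide genes, in each library (Elys-KD red, control blue; circle, library 1; square, library 2). The first Elys-KD library stands above the other 3 in most genes, as with CecA1 at 140 TPM against 44.2 to 50.2 TPM in control cells and 47.6 TPM in the second Elys-KD library.

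Blood cell genes had 8 of 17 tested members called higher and 2 lower. With an Elys-KD library left out 7 or 9 were higher, and without either control library 5, while 5 were lower without the first Elys-KD library. The clotting factor gene fon had 23.9 and 21.8 TPM in Elys-KD cells, against 7.50 and 8.33 TPM in control cells (log2 fold change 1.5 ± 0.056, edgeR adjusted p = 6.81e-05). The matrix peroxidase gene Pxn (overlapping CG16986 and 3 long non-coding RNA genes) had 11 and 9.52 TPM, against 6.57 and 6.14 TPM. The prophenoloxidase gene PPO2 had 10.4 TPM in both Elys-KD libraries, against 10.1 and 11.1 TPM, and the hemolectin gene Hml had 12.8 and 9.82 TPM against 11.6 and 14.3 TPM. Hml and PPO2 were not called, and summed over 26 genes the list came to 944 and 871 TPM in Elys-KD cells, against 861 and 904 TPM in control cells, with the groups overlapping.

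Scavenger and phagocytic receptors had 6 of 11 tested members higher and 1 lower, and 3 higher without either control library and 4 without the first Elys-KD library. Itgbn, an integrin beta chain used to take up dead cells (overlapping CG9265), had 4.57 and 4.41 TPM, against 2.10 and 1.98 TPM (log2 fold change 1.10 ± 0.081, edgeR adjusted p = 0.000449). The scavenger receptor gene Sr-CIV (overlapping CG8851) had 1.43 and 1.31 TPM, against 0.524 and 0.561 TPM, and eater, a receptor for bacteria, had 3.14 and 2.46 TPM, against 1.91 and 2.00 TPM. Integrins, basement membrane and matrix genes were split at 6 higher and 6 lower of 27 tested, with 3 lower without the second control library and under library totals. Besides Itgbn and Pxn, Tig, which codes for the matrix protein tiggrin (overlapping CG13982), rose to 11.7 and 10.9 TPM, against 7.68 and 8.17 TPM in control cells. The collagen genes Col4a1 (17 and 15 TPM against 16.5 and 17.6 TPM) and vkg (10.3 and 9.13 TPM against 10.1 and 10.5 TPM) were not called.

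Actin genes were called higher in 10 of 50 tested members and lower in 4, with 6 higher when the second control library was left out and 2 to 5 lower over the libraries left out. The actin nucleator gene spir (overlapping lncRNA:CR43606) had 8.33 and 7.69 TPM in Elys-KD cells, against 3.87 and 4.39 TPM in control cells (log2 fold change 0.89 ± 0.064, edgeR adjusted p = 0.000371). The Arp2/3 subunit gene Arpc3B had 16.7 and 20.6 TPM, against 11.6 and 12.3 TPM, and the bundling protein gene Fim (overlapping CG5445) had 205 and 192 TPM, against 146 and 154 TPM. The spectrin gene kst fell to 46.2 and 39.3 TPM, against 49.9 and 56.5 TPM in control cells. Tubulins, kinesins and cilia genes moved in 2 of 27 members upward and in 1 downward, under the background in both directions.

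The genes of the mitochondrial genome fell together. All 13 were called lower and 6 passed 1.5-fold, around a median of -0.55 on the log2 scale. These genes code for core subunits of the respiratory chain and of ATP synthase. None of the 13 was higher at an unadjusted p under 0.05. Leaving out each library in turn gave 11 or 12 members lower, and 12 were lower under library totals and in DESeq2. Of the genes described next, mt:ATPase6, mt:CoI, mt:CoII and mt:ND3 were picked after their values were seen. The ATP synthase gene mt:ATPase6 had 2626 and 2774 TPM in Elys-KD cells, against 3751 and 3757 TPM in control cells (log2 fold change -0.47 ± 0.039, edgeR adjusted p = 0.000667). The cytochrome c oxidase gene mt:CoII had 1044 and 1052 TPM, against 1632 and 1583 TPM (log2 fold change -0.61 ± 0.038, edgeR adjusted p = 0.00019), while mt:CoI fell least, with 856 and 783 TPM against 971 and 1040 TPM. Among the subunits of complex I the falls ran over a wider range. The complex I gene mt:ND2 had 9.86 and 11.1 TPM, against 34.5 and 42.7 TPM (log2 fold change -1.89 ± 0.11, edgeR adjusted p = 0.00013). Its partner mt:ND3 had 349 and 348 TPM, against 485 and 501 TPM (log2 fold change -0.47 ± 0.032). The genes lowest in control cells, mt:ND6 (1.63 and 3.77 TPM against 11.5 and 9.98 TPM) and mt:ND4L (6.69 and 15.6 TPM against 32.5 and 30.9 TPM), had the widest spread between Elys-KD libraries. Every Elys-KD library lay under both controls in all 13 genes. That also held for all 51 genes lower over 1.5-fold, and its share over all genes was not counted. The summed TPM of the 13 genes was 9019 and 8988 in Elys-KD cells, against 12412 and 12786 in control cells.

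**Figure D4:**
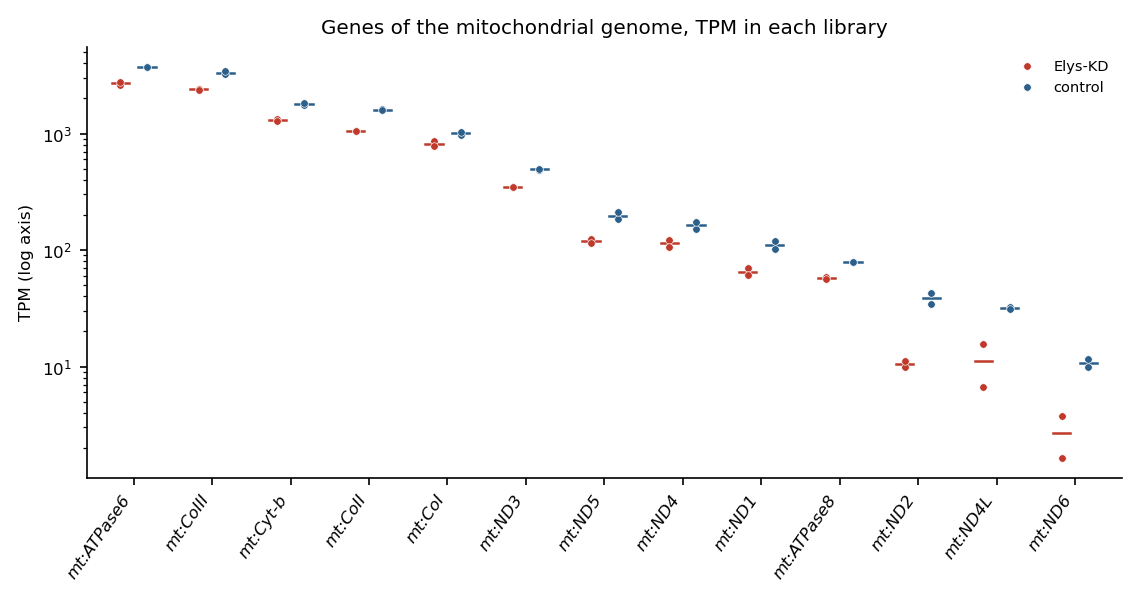
TPM on a log axis of the 13 genes of the mitochondrial genome in each of the 2 Elys-KD (red) and 2 control (blue) libraries, with a bar at the mean, ordered by control level. Every gene is lower in both Elys-KD libraries, with the widest gaps in mt:ND2, mt:ND4L and mt:ND6, at 0.272, 0.352 and 0.252 of the control mean.

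Nuclear genes of the same complexes were called no more often than all genes. Of 71 tested nuclear subunits of the respiratory chain 3 were called higher and 7 lower (median log2 fold change -0.01). The share higher was under the background (4.23% against 8.74%) and the share lower was near it (9.86% against 10.1%). Fewer were lower without the first Elys-KD or the first control library. Their summed TPM was 33863 and 34252 in Elys-KD cells, against 34507 and 34450 in control cells. The largest called fall was that of ND-AGGG, at 134 and 144 TPM against 172 and 169 TPM. Mitochondrial ribosomal proteins had 1 of 76 members higher and 2 lower. TFAM, which packages mitochondrial DNA and starts its transcription, had 200 and 201 TPM, against 208 TPM in both control libraries, and was not called (edgeR adjusted p = 0.23).

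Among genes of fuel use the changes were small. Of 34 tested genes of fatty acid oxidation and the peroxisome 11 were called lower and 1 higher, but 6 under library totals, 5 without the first Elys-KD library, 6 without the first control library and 2 without the second were lower. The acyl-CoA dehydrogenase gene Mcad (overlapping CG32373 and CG7457) had 175 and 164 TPM in Elys-KD cells, against 222 and 233 TPM in control cells (log2 fold change -0.45 ± 0.039, edgeR adjusted p = 0.000716). The carnitine transferase gene whd (overlapping CG11777 and asRNA:CR45134), which admits fatty acids to mitochondria, had 34.1 and 32.5 TPM, against 38.6 and 40.3 TPM. The nuclear receptor gene Hnf4 (overlapping CatB and asRNA:CR44992), which drives this programme in flies, had 74.4 and 75.9 TPM, against 80.9 and 86.1 TPM. No member fell over 1.5-fold.

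Glycolytic and related genes moved both ways, with 6 of 21 higher and 4 lower, and those that fell most act in the reverse direction. The gluconeogenic genes Pepck1 (45.1 and 43.3 TPM against 69.6 and 74.3 TPM, overlapping CG45087) and fbp (7.20 and 6.79 TPM against 10.6 and 10.8 TPM) were lower over 1.5-fold. Gpo1, which passes electrons of glycerol 3-phosphate to the respiratory chain, rose to 21.2 and 21.5 TPM, against 14.2 and 14.9 TPM in control cells, and the glycogen phosphorylase gene Glyp rose to 8.60 and 8.56 TPM, against 5.52 and 6.50 TPM. None of 25 genes of the TCA cycle and pyruvate entry was higher and 3 were lower, among them the pyruvate carrier gene Mpc1 at 39.3 and 38.7 TPM against 45.3 and 45.7 TPM. At an unadjusted p under 0.05, 2 of the 25 were higher in edgeR's test, DESeq2 called none higher, and library totals 1. Sugar and solute transporters were called higher in 9 of 34 and lower in 4, and 6 were higher without the first control library and 2 to 4 lower over the libraries left out. The monocarboxylate carrier gene Mct1 (overlapping CG14053, FarO and asRNA:CR43637) had 5.66 and 5.74 TPM against 3.74 and 4.26 TPM, and SLC5A11 (overlapping PGAP5 and asRNA:CR44119) fell to 15.2 and 13.4 TPM against 21.7 and 22.9 TPM. In amino acid metabolism 4 of 24 rose (2 to 4 with single libraries left out) and 7 fell, led by the glutamate dehydrogenase gene Gdh (overlapping CG5854) at 90.1 and 86.2 TPM against 113 and 125 TPM.

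Some genes of ribosome assembly were called lower. Of 53 tested genes of ribosome assembly and RNA polymerase I, 16 were called lower and none higher, and 49 had a log2 fold change below 0 (median -0.12). None was lower over 1.5-fold. In edgeR's test 2 were higher at an unadjusted p under 0.05, and DESeq2 called 17 lower and none higher. Under library totals 13 were lower and 2 higher, and 4 were lower without the first control library and 9 without the second. The nucleolar protein gene mod had 281 and 280 TPM in Elys-KD cells, against 349 and 341 TPM in control cells (log2 fold change -0.33 ± 0.035, edgeR adjusted p = 0.00166). Nop60B, the pseudouridine synthase of ribosomal RNA (overlapping 7 snoRNA genes), had 134 and 135 TPM, against 164 and 156 TPM, and nop5 (overlapping x16 and a snoRNA gene), a core protein of snoRNA particles, had 197 and 196 TPM, against 238 and 225 TPM. The methyltransferase gene Fib, at 276 and 300 TPM against 322 and 308 TPM (overlapping a snoRNA gene), and Myc, at 8.37 and 7.08 TPM against 7.10 and 8.57 TPM (overlapping CG12535 and lncRNA:CR44999), were not called. Of 80 cytoplasmic ribosomal protein genes 4 were higher and 4 lower (median log2 fold change 0.02), with 0 to 8 higher and 2 to 5 lower when single libraries were left out. Of 86 translation factors and tRNA synthetases 4 were higher and 3 lower. The translation repressor gene Thor, a target of stress signalling, rose to 129 and 133 TPM, against 90.4 and 102 TPM in control cells (log2 fold change 0.44 ± 0.055, edgeR adjusted p = 0.00327). Of 50 proteasome and ubiquitin genes 2 were lower and none higher in edgeR's test. At an unadjusted p under 0.05, 4 of them were higher, and DESeq2 called none higher and library totals 3.

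Some genes of the cell cycle were called lower. Of 55 tested genes of DNA replication 10 were called lower and none higher, and 49 lay below 0. In edgeR's test 1 was higher at an unadjusted p under 0.05, and DESeq2 called 12 lower and none higher. Of 91 genes of mitosis and cytokinesis 17 were called lower and 1 higher. Both counts leaned on single libraries: replication had 4 lower without the second control library, and mitosis had 9 without the second Elys-KD library, 5 without the first control library, 2 without the second, and 10 under library totals. Of the 91 mitosis genes 66 lay below 0 and 25 above. The largest fall of a mitosis gene was that of stg, the Cdc25 phosphatase that triggers entry into mitosis, with 53.9 and 47.4 TPM in Elys-KD cells, against 79.4 and 88.8 TPM in control cells (log2 fold change -0.77 ± 0.064, edgeR adjusted p = 0.000629). The securin gene pim had 37.1 and 38.7 TPM, against 52.2 and 47.7 TPM, and CycB, CycA and Cdk1, which drive mitosis, were each lower by 0.17 on the log2 scale (CycA overlaps CG7264). Of the replication genes, the ribonucleotide reductase gene RnrS had 364 and 359 TPM, against 450 and 462 TPM, and the Cdk inhibitor gene dap had 44.3 and 43.1 TPM, against 54.5 and 57.2 TPM. The condensin gene glu (overlapping Nubp1) was the member that rose, at 45.1 and 41.7 TPM against 32.7 and 36.9 TPM. E2f1, the activator of many of these genes (it overlaps mir-11, mir-998 and 3 long non-coding RNA genes), had 90.9 and 85.9 TPM, against 83.4 and 85.6 TPM, and was not called.

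**Figure D5:**
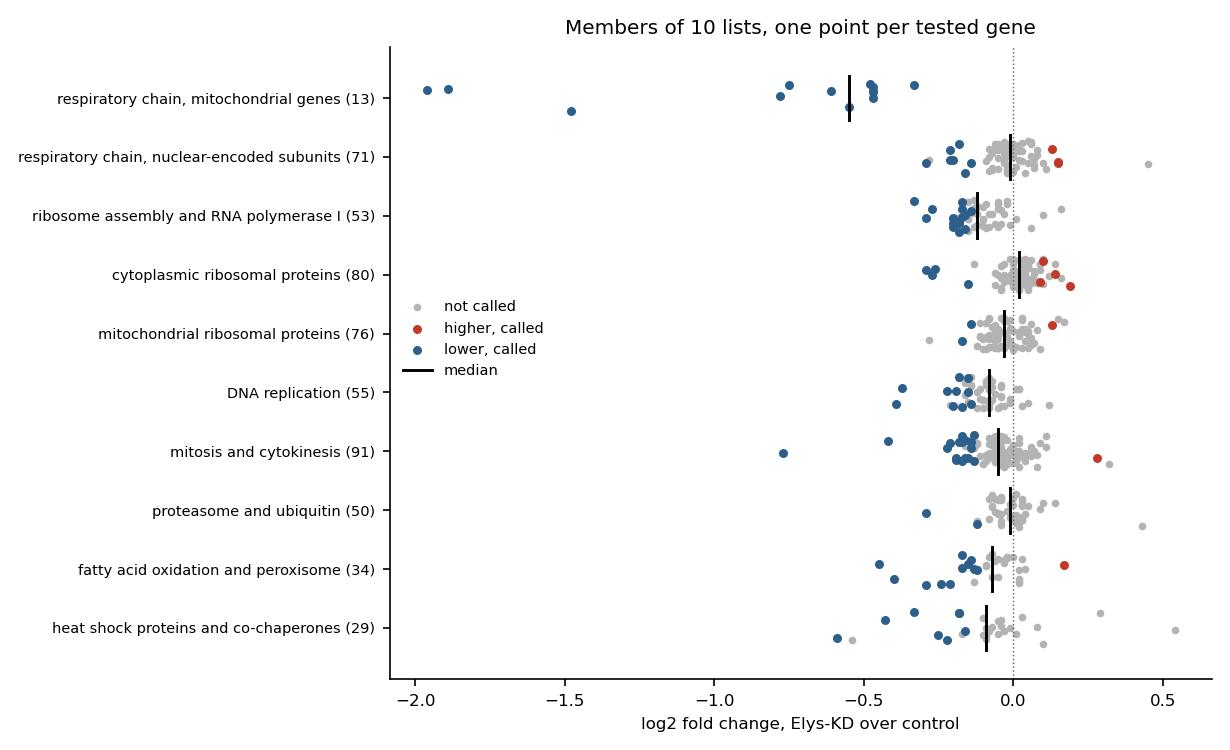
Log2 fold change of Elys-KD over control (x axis) for every tested member of 10 lists, with members called higher in red, called lower in blue and not called in grey, and a black bar at the median (number of members in brackets). The genes of the mitochondrial genome have a median of -0.55 and the nuclear subunits -0.01, and the members of ribosome assembly lie around -0.12 and cytoplasmic ribosomal proteins around 0.02.

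Heat shock proteins and co-chaperones, which refold damaged proteins, had 8 of 29 tested members lower and none higher, with 6 to 10 lower when single libraries were left out. At an unadjusted p under 0.05, 2 were higher in edgeR's test, and DESeq2 called 9 lower and 1 higher, and library totals 7 lower and 1 higher. The inducible gene Hsp70Bb had 1764 and 1817 TPM in Elys-KD cells, against 2125 and 2026 TPM in control cells, and Hsp70Aa had 71 and 76.7 TPM, against 106 and 110 TPM (log2 fold change -0.59 ± 0.052, edgeR adjusted p = 0.000768). The Hsp70 genes are near-identical copies, so their reads may have been assigned to the wrong copy. Their activator gene Hsf had 54.7 and 52.4 TPM, against 53 and 54.3 TPM, and was not called. Of 31 genes of the unfolded protein response 3 were called in each direction (1 to 3 higher and 1 or 2 lower with single libraries left out), with Atf6 lower (41.2 and 39.2 TPM against 47.7 and 49.0 TPM) and Xbp1 higher (649 and 631 TPM against 536 and 584 TPM).

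Genes that respond to the steroid ecdysone were called lower in 6 of 17 tested members and higher in 1, and 4 were lower without the second control library. The nuclear receptor gene Eip78C (overlapping CG43218) had 5.28 and 5.26 TPM in Elys-KD cells, against 7.47 and 8.02 TPM in control cells (log2 fold change -0.60 ± 0.045, edgeR adjusted p = 0.000459). The rising member, the repressor gene vri (overlapping lncRNA:CR45730), which also serves the circadian clock, had 21.4 and 20.4 TPM, against 15.2 TPM in both control libraries. The ecdysone receptor genes EcR (9.20 and 8.28 TPM against 8.40 and 9.29 TPM, overlapping several genes) and usp (26.7 and 24.6 TPM against 23 and 24.4 TPM, overlapping Actn and CG4313) and the early gene Eip75B were not called.

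Small RNA pathways had 8 of 27 tested members lower and 2 higher, under library totals as well, with 5 and 4 lower without the first and the second control library. AGO2, the slicer of small interfering RNA that acts on dsRNA (overlapping CG7739), had 177 and 166 TPM in Elys-KD cells, against 191 and 204 TPM in control cells (log2 fold change -0.25 ± 0.036, edgeR adjusted p = 0.00537). The piRNA genes AGO3 (21.9 and 20.4 TPM against 24.6 and 26.1 TPM), tej (16.1 and 16.3 TPM against 20 and 19.9 TPM) and piwi (1.96 and 2.14 TPM against 3.16 and 3.31 TPM, overlapping SCAR) were lower too. Dcr-2, which cuts dsRNA (overlapping Rab4), had 31.1 and 29.6 TPM, against 27.5 and 28.4 TPM, and was not called.

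In several tissue programmes most genes lay under the level limit in Elys-KD and control cells alike. Few of their genes passed the level limit and the count filter, namely 13 of 191 chemosensory genes, 4 of 69 homeobox and segmentation genes, 20 of 168 cuticle genes, 20 of 146 genes of excitable membranes and 13 of 56 testis genes. Counts over such genes describe only those that passed. Fat body genes had 8 of 15 tested members lower and 2 higher, with 5 lower without the first Elys-KD or the first control library and 2 without the second control library. That list was not low in level. Its 31 genes summed to 2943 and 2909 TPM in Elys-KD cells, against 3107 and 3221 TPM in control cells. The growth factor genes Idgf6 (693 and 685 TPM against 782 and 820 TPM, overlapping Pgant9) and Idgf4 (9.72 and 9.58 TPM against 5.70 and 6.19 TPM) moved in opposite directions, with Idgf4 higher. The lipocalin gene NLaz had 1.46 and 1.80 TPM, against 2.69 and 2.61 TPM. Muscle genes split at 3 of 17 higher and 5 lower, and 3 and 1 were lower without the first and the second control library. Examples were the actin gene Act57B (overlapping a snoRNA gene) at 5.26 and 4.32 TPM against 6.72 and 8 TPM, and the myosin light chain gene Mlc2 at 11 and 12.1 TPM against 8.19 and 7.63 TPM.

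Neuronal and synaptic genes rose in 2 of 12 tested members and fell in none, although their median log2 fold change was -0.08. At an unadjusted p under 0.05, 4 were lower in edgeR's test, DESeq2 called none lower, and up to 2 were called lower with a library left out. Among receptors of the immunoglobulin family, 33 of 118 passed and 3 were called in each direction, with 2 to 6 higher and 1 to 4 lower when single libraries were left out. The neuronal surface protein gene dpr17 had 1.11 and 0.964 TPM in Elys-KD cells, against 0.389 and 0.373 TPM in control cells (log2 fold change 1.39 ± 0.15, edgeR adjusted p = 0.00175), and the guidance gene Sema1a (overlapping a long non-coding RNA and tRNA genes) had 6.01 and 5.67 TPM, against 3.78 and 3.92 TPM. The active zone gene brp had 0.919 and 0.824 TPM against 0.242 and 0.357 TPM, under the level limit. Of the chemosensory list the odorant-binding protein gene Obp99c (overlapping Gycalpha99B) was called, at 38.7 and 44.1 TPM against 85.4 and 86.5 TPM. Germ-line genes changed singly: osk (overlapping asRNA:CR44020 and lncRNA:osk) rose to 1.22 and 1.04 TPM, against 0.641 and 0.635 TPM in control cells, and bam (overlapping CG11854) fell to 46.2 and 43.2 TPM, against 53.4 and 54.8 TPM. The cuticle gene Cpr11A fell to 6.66 and 6.49 TPM, against 12.8 and 14.6 TPM, and the pigment gene yellow-b (overlapping ppk17) rose to 7.99 and 7.85 TPM, against 4.81 and 5.04 TPM.

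The largest named changes came from several functions. Among the 12 largest rises besides those above, bnb (overlapping S6KL) had 42.8 and 38.9 TPM in Elys-KD cells, against 11.6 and 14.2 TPM in control cells (log2 fold change 1.63 ± 0.078, edgeR adjusted p = 9.13e-05). The tetraspanin gene Tsp42Ed had 40 and 43.1 TPM, against 15.2 TPM in both control libraries (log2 fold change 1.43 ± 0.058, edgeR adjusted p = 9.13e-05). Msr-110 (17.5 and 19.1 TPM against 6.07 and 6.73 TPM, overlapping a small non-coding RNA gene) and the carbonic anhydrase gene CAH7 (15.7 and 15.6 TPM against 5.58 and 6.97 TPM) rose as well. CBP (1.79 and 1.76 TPM against 0.592 and 0.843 TPM, overlapping CG1677 and lncRNA:CR44357) and the mucin gene Muc18B (1.11 and 1.09 TPM against 0.586 and 0.331 TPM) were near the level limit, and Muc18B reached an edgeR adjusted p of 0.0922 with a library left out. Among the 12 largest falls, Nep4, a metalloprotease that cuts peptides, had 2.45 and 2.63 TPM, against 9.27 and 9.82 TPM (log2 fold change -1.95 ± 0.058, edgeR adjusted p = 1.73e-05). Arms (overlapping Panx and 2 antisense RNA genes) had 43.8 and 40.6 TPM, against 88.1 and 97.8 TPM, the mucin gene Muc68Ca had 0.841 and 0.849 TPM, against 1.69 and 1.81 TPM, and otk (overlapping lncRNA:CR44306), a transmembrane protein of Wnt signalling, had 2.78 and 2.54 TPM, against 4.39 and 4.99 TPM. The rises and the falls alike were clear of the other group in every library, which the rule for naming them required.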

How the data were processed

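RNA was measured by poly(A+) RNA-seq in 2 Elys-KD and 2 control libraries of S2 cells, grouped by their titles. The authors deposited an estimated count, a TPM value and an effective length per gene. Per the study's methods, clipped reads were mapped uniquely to dm3 and Salmon gave counts and TPM for FlyBase genes, and per the labels' processing notes HISAT2, DESeq2 and BDGP5 were also used. Tool versions are not given in the sources used here. Reads shared by near-identical genes were either discarded by unique mapping or split between the copies, and the sources used here do not say which. TPM sets each library to the same total, so a value depends on all other genes.

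Estimated counts were rounded to whole numbers and tested with edgeR 4.0.16 (R 4.3.3; quasi-likelihood test, TMM factors, filterByExpr, Benjamini-Hochberg adjustment), with no replicate block. DESeq2 1.42.0 was an alternative, beside library totals, RLE and upper quartile factors, effective length offsets, no filter, the replicate block, higher limits and leaving out each library. Symbols came from the name table for 13389 of 13937 IDs, and overlaps from the start and end of genes in RefSeq, Release 6. The genes of the mitochondrial genome were not placed there, so their overlaps were not checked. Named genes were the 12 largest rises and 12 largest falls with a given name, up to 4 called members of each list and the core of each pathway. For the rises, falls and list members, both Elys-KD libraries had to lie on one side of both controls. Other genes are stated as picked after their values were seen. Members and lists were chosen with earlier results of these data known. Shares of calls near the background say nothing about a list, and genes of several lists count in each.

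Counts were also simulated for 9073 genes from the trend of spread that edgeR itself had fitted. There edgeR called 60%, 90%, 96% and 100% of genes changed by 1.2, 1.5, 2 and 3-fold (50 genes each), and 0.124% of unchanged genes. Changes were placed only in genes above a low count limit. No gene or library had a spread of its own, so these rates do not carry over to the real libraries. Counts between libraries of a group exceeded sampling noise, with a chi-square per degree of freedom of 6.57 in Elys-KD and 5.57 in control libraries, so each was kept as a sample. Figures were drawn with Matplotlib 3.10.9 in Python 3.11.15. The domain files of the chromatin samples were not used.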

Additional observations from a re-analysis of the deposited data

How the results depend on the processing

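The calls fell most when a control library was left out, which leaves the spread to the Elys-KD pair alone. Whether the control values themselves matter more was not tested. Leaving out 1 library in turn gave 371 to 688 genes higher (395 without the first control library, 371 without the second) and 336 to 750 lower (412 and 336), against 669 and 774 with all 4. Genes past 1.5-fold ranged over 134 to 187 higher and 42 to 75 lower. With a mean TPM of at least 5, 80 genes were higher over 1.5-fold, and past 2-fold 49 were higher and 17 lower. Under library totals 896 genes were higher and 561 lower, and DESeq2 called 538 and 717. By list, leaving out 1 library gave 2 to 11 members lower in fatty acid oxidation, 4 to 17 in ribosome assembly, 4 to 13 in DNA replication, 2 to 15 in mitosis and 11 to 12 among mitochondrial genes, and 11 to 14 higher among glutathione S-transferases and 6 to 11 among actin genes. Library totals gave 6 members lower in fatty acid oxidation and 10 in mitosis, and no filter on low counts gave 11 in mitosis. Same-numbered libraries did not deviate together (correlation -0.0863 over 9156 genes), and the main test did not pair them. A correlation pooled over all genes cannot decide whether these libraries were prepared as pairs. A replicate block gave 523 genes higher and 507 lower, and members lower of 5 in fatty acid oxidation, 8 in ribosome assembly, 5 in DNA replication and 7 in mitosis. With the block 7 of the 11 immune peptide genes were called higher, against none without it, and Rel was called (edgeR adjusted p = 0.00985, against 0.103). Of the 235 named genes that were called, none changed direction under any setting. List members and the largest changes among them had been named only where the groups did not overlap, which leaves little room for a reversal. Without the second control library 76 of the 235 lost the call, and without the first 69. The call was lost in 46 with no filter, 37 without the first Elys-KD library, 27 in DESeq2, 25 with the block and 16 or fewer under the others. The causes were not tested. With 2 libraries a group, changes under 1.5-fold and genes near 1 TPM are the least certain.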

Other observations

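Some families outside the lists held called members, and all genes of this paragraph were picked after their values were seen. Of 15 tested tetraspanins, membrane proteins that organize surface complexes, 5 were higher and none lower in edgeR's test, 3 of them (Tsp42Ed, Tsp42Eb and Tsp2A) over 1.5-fold. Tsp2A (overlapping MTPAP), a part of smooth septate junctions that seal gut epithelia, had 1.4 and 1.21 TPM in Elys-KD cells, against 0.698 and 0.699 TPM in control cells. Its junction partner Ssk (overlapping CG42674) had 2.43 and 2.71 TPM, against 1.60 and 1.52 TPM. Neither call held in DESeq2 (adjusted p = 0.331 for Tsp2A and 0.169 for Ssk) or with a library left out (edgeR adjusted p at most 0.213 and 0.152). The call of Tsp42Eb (overlapping Tsp42Ea) was lost as well, with an adjusted p of 0.226 in DESeq2 and at most 0.215 in edgeR with a library left out. The arginine kinase gene Argk1 had 24.4 and 24.6 TPM in Elys-KD cells, against 14.4 and 15.4 TPM in control cells, and the lipid phosphatase gene wun2 had 8.84 and 8.82 TPM, against 4.73 and 4.52 TPM. The aldo-keto reductase gene Akr1B was abundant and fell to 1029 and 1066 TPM, against 1568 and 1591 TPM in control cells (log2 fold change -0.62 ± 0.034, edgeR adjusted p = 0.000115). The juvenile hormone epoxide hydrolase gene Jheh1 (overlapping asRNA:CR46485) had 38.9 and 39.4 TPM, against 59.1 and 61.6 TPM.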
